A study of Mus musculus with 72 samples.

Results

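The 4 conventional G protein beta subunit genes, Gnb1, Gnb2, Gnb3 and Gnb4, were taken by their Ensembl identifiers from the 53715 gene rows of each count table, and all 4 were measured in all 72 libraries. The RNA-seq libraries came from 18 male mice on a C57BL/6J background, each 18 weeks old, 6 wild type for Gnb5 (Gnb5+/+), 6 heterozygous (Gnb5+/-) and 6 homozygous for a germline deletion of Gnb5 exon 3 (Gnb5-/-). Right and left atria and whole ventricles were sampled from mice of all 3 genotypes. The brain parts, cerebellum, hippocampus and cerebral cortex, were sampled from Gnb5+/+ and Gnb5-/- mice, which gave 12 groups of 6 libraries. Every library of a group came from a different mouse, and the same numbered mice gave all tissues, so tissues are not independent of each other. The deletion was constitutive and present in every cell type, and no Gnb5+/- brain was sampled.

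Receptors coupled to heterotrimeric G proteins act through an alpha subunit and a beta-gamma dimer. The dimer opens GIRK potassium channels in atrial myocytes and neurons and modulates adenylyl cyclases, phospholipase C beta and PI3 kinase gamma. Gnb1 to Gnb4 encode closely related beta subunits that pair with gamma subunits, whereas Gnb5, the gene deleted here, encodes a divergent beta subunit that pairs with R7-type RGS proteins. Gnb1 encodes the beta subunit of rod transducin and is expressed in most tissues, Gnb2 is also widely expressed, Gnb3 encodes the beta subunit of cone transducin, and variants of Gnb4 in people cause a form of Charcot-Marie-Tooth neuropathy.

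Gnb1 (ENSMUSG00000029064) lies at chr4:155491361-155559269 on the plus strand of GRCm38, and the other 3 genes lie on minus strands. Gnb2 (ENSMUSG00000029713) is at chr5:137528127-137533510, Gnb3 (ENSMUSG00000023439) at chr6:124834240-124840275, and Gnb4 (ENSMUSG00000027669) at chr3:32580332-32616585. Annotated exons covered 4268 bases in Gnb1, 3402 in Gnb2, 2632 in Gnb3 and 12692 in Gnb4, so levels of different genes are compared only per kilobase. The coding sequence was 1023 bases in each gene. The first 90 coding bases are shown because they let a reader see how like, and how separable, the 4 mRNAs are. Capitals mark bases that differ from Gnb1, 26 in Gnb2, 24 in Gnb3 and 27 in Gnb4, and each stretch spans 2 exons, at chr4:155527453-155533729, chr5:137530404-137530751, chr6:124839373-124839720 and chr3:32598132-32602101.
Gnb1: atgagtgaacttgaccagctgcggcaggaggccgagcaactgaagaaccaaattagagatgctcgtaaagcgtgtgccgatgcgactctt
Gnb2: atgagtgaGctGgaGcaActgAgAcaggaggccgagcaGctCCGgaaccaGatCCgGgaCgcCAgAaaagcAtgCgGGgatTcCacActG
Gnb3: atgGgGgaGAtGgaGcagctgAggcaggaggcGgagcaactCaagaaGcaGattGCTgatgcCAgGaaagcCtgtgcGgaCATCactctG
Gnb4: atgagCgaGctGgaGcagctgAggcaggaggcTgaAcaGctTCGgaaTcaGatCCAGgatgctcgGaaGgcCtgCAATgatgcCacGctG
Over whole coding sequences, pairs of members were identical at 72.4% to 77.0% of bases, and their longest identical run was 20 to 32 bases, shorter than a read. Of the Gnb2 exons, 3.94% of bases were shared on the same strand with Epo or Mir6418, which had 29 and 0 reads in all over the 72 libraries. Those counts do not measure how many Gnb2 reads were set apart as ambiguous between genes.

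Gnb5 was checked first against the labels. Its level was read in CPM, counts scaled to library size with TMM factors over all 72 libraries, the scale of every level below. It was 29.5 to 37.0 in Gnb5+/+, 15.5 to 21.3 in Gnb5+/- and 1.66 to 2.93 in Gnb5-/- atria. The ranges were equally separate in the other 4 tissues, and no library went against its genotype. The libraries held between 29204390 and 48807435 gene-assigned reads. Summed tissue markers were highest in the labelled tissue for atria, ventricles, cerebellum and cerebral cortex. The hippocampal list was not, since Dsp, 1 of its 4 genes, was abundant in heart (984 to 1306 CPM in Gnb5+/+ atria), while Lct, another of them, was highest in hippocampus. A few libraries stood apart in the share of reads outside genes, with 4.97% and 6.40% in the Gnb5-/- cortex of mice 14 and 3, 6.07% in the Gnb5-/- cerebellum of mouse 12 and 1.44% in the Gnb5+/- ventricles of mouse 4. Comparisons of Gnb5-/- cortex or cerebellum with Gnb5+/+, and list medians in these tissues, are also given without the 3 brain libraries where that moves them.

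In Gnb5+/+ mice Gnb1 was the most abundant member in every tissue, Gnb2 came next, and the order of Gnb3 and Gnb4 turned over between ventricles and the other tissues. Per kilobase of exon, Gnb1 had a mean level of 39.3 CPM in atria, 34.7 in ventricles, 72.7 in cerebellum, 97.8 in hippocampus and 113 in cortex. Gnb2 had 20.05, 20.99, 19.01, 32.9 and 39.7 CPM per kilobase in the same order. Gnb4 had 1.44, 1.749, 2.33, 1.17 and 2.79, and Gnb3 had 0.676, 3.74, 0.187, 0.0738 and 0.0847. Gnb3 thus exceeded Gnb4 per kilobase in ventricles and lay below it in the other 4 tissues. All 4 together reached 61.5 ± 4.37 CPM per kilobase (SD, n = 6) in atria and 61.1 ± 4.89 in ventricles, against 94.2 ± 2.98 in cerebellum, 132 ± 5.65 in hippocampus and 155 ± 5.72 in cortex.

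**Figure D1:**
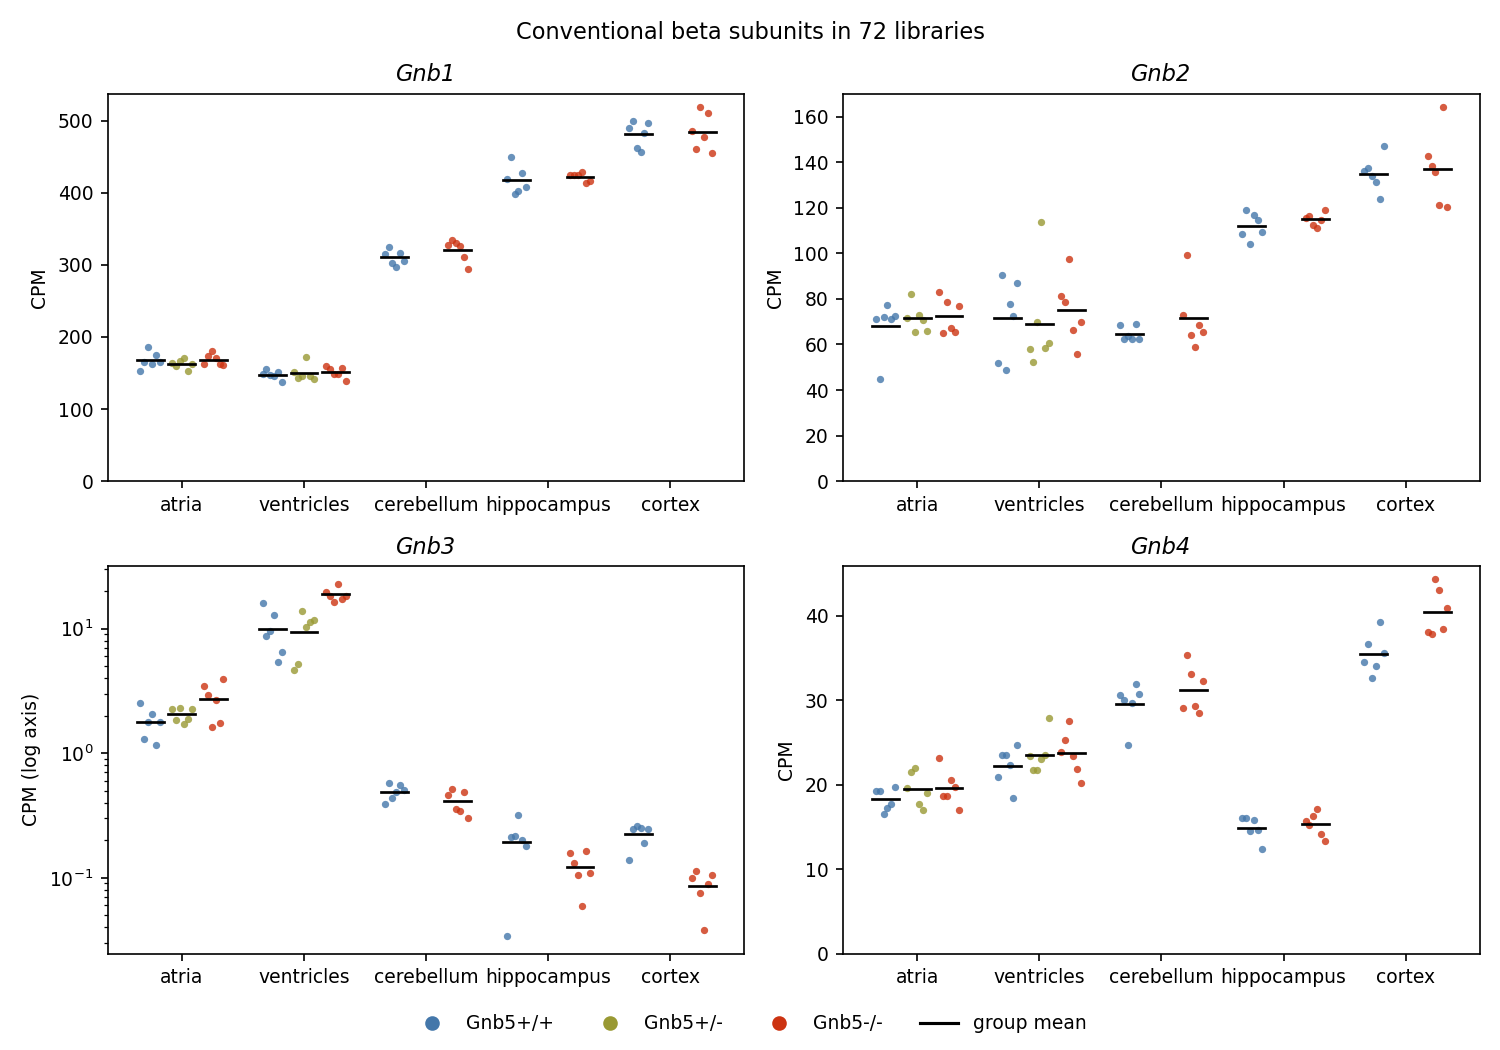
Level of each member in CPM (TMM over 72 libraries) by tissue, with 1 point per library, colours for the 3 genotypes and bars at group means; the Gnb3 axis is logarithmic. Gnb1, Gnb2 and Gnb4 overlap between genotypes in every tissue, while Gnb3 is highest in ventricles, at 16.3 to 22.9 CPM in Gnb5-/- mice, and under 0.600 CPM in all brain libraries.

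Tissues were compared in 1 fit of the 30 Gnb5+/+ libraries by the quasi-likelihood test of edgeR, with Benjamini-Hochberg adjustment over all genes tested and a threshold of 0.05, at which a gene is said to be called. The background was high. Between atria and ventricles 51.6% of all genes tested were called, between atria and cerebellum, hippocampus or cortex 86.3%, 86.4% and 87.0%, and between ventricles and the same brain parts 86.6%, 86.9% and 87.4%. Cerebellum against hippocampus gave 68.3%, cerebellum against cortex 69.1%, and hippocampus against cortex 33.5%. Of the 10 tissue pairs, Gnb1 was called in 10, Gnb4 in 10, Gnb3 in 9 and Gnb2 in 6. Shares of this size between such different organs lie near the background.

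Gnb1 had the lowest value, median and highest value of 138, 148 and 156 CPM in Gnb5+/+ ventricles, 153, 166 and 186 in atria, 297, 310 and 324 in cerebellum, 398, 414 and 449 in hippocampus, and 456, 486 and 500 in cortex. Ranges of neighbouring tissues overlapped for ventricles and atria and were separate above them. The log2 difference was 0.23 for atria over ventricles (SE 0.05, adjusted p = 2.06e-04) and -0.19 for hippocampus over cortex (SE 0.05, adjusted p = 0.00314), the 2 smallest of the 10. Ventricles had 0.300 times the cortical level (95% interval 0.279 to 0.322, adjusted p = 1.38e-24).

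Gnb2 had 44.95, 71.7 and 77.3 CPM in Gnb5+/+ atria, 48.7, 75.2 and 90.6 in ventricles, 62.3, 63.0 and 69.0 in cerebellum, 104, 112 and 119 in hippocampus, and 124, 135 and 147 in cortex. The first 3 tissues overlapped and the last 2 lay above them. None of the 3 pairs among atria, ventricles and cerebellum was called, with log2 fold changes of -0.02 for atria over ventricles (95% interval -0.26 to 0.23), 0.02 for atria over cerebellum (-0.22 to 0.27) and 0.04 for ventricles over cerebellum (-0.21 to 0.29). Hippocampus and cortex did not overlap in range, but the fitted difference of -0.25 (-0.50 to -0.01) had an adjusted p of 0.101. Cerebellum had 0.504 times the cortical level (0.425 to 0.597, adjusted p = 1.30e-08).

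Gnb4 had 12.4, 15.2 and 16.03 CPM in Gnb5+/+ hippocampus, 16.5, 18.5 and 19.7 in atria, 18.5, 22.9 and 24.7 in ventricles, 24.7, 30.3 and 32.0 in cerebellum, and 32.6, 35.1 and 39.2 in cortex. Hippocampus was lowest for Gnb4, and by median also for Gnb3, whereas Gnb1 and Gnb2 had their second highest level there. Hippocampus had 0.425 times the cortical level of Gnb4 (0.381 to 0.473, adjusted p = 2.95e-14). The smallest steps in the order were cerebellum over cortex, a log2 difference of -0.19 (SE 0.07, adjusted p = 0.0268), and atria over ventricles, a difference of -0.23 (SE 0.08, adjusted p = 0.0130). Neither was called without the filter on low counts (adjusted p = 0.0596 and 0.0673) or with library totals (0.103 and 0.163). The second also turned in direction with library totals.

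Gnb3 had the steepest profile. It had 5.41, 9.11 and 16.2 CPM in Gnb5+/+ ventricles, 1.17, 1.79 and 2.54 in atria, 0.390, 0.494 and 0.577 in cerebellum, 0.138, 0.247 and 0.262 in cortex, and 0.0341, 0.208 and 0.321 in hippocampus. Hippocampus and cortex overlapped and did not pass the test (log2 fold change -0.19, 95% interval -0.88 to 0.50, adjusted p = 0.714), and the other tissues were separate in range. Atria had 0.190 times the ventricular level (0.134 to 0.269, adjusted p = 8.86e-10), and ventricles 18.4 times that of cerebellum (12.6 to 26.9), 42.2 times that of cortex (27.9 to 63.9) and 48.2 times that of hippocampus (31.6 to 73.5). The brain values rested on few reads, with 22 to 35 per library in Gnb5+/+ cerebellum, 7 to 15 in cortex and 2 to 18 in hippocampus.

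Differences between organs depend on the scaling more than those within one. Scaling by library totals in place of TMM moved the median log2 fold change of all genes by 0.38 for atria over ventricles, by -0.69 to -0.63 for atria over brain parts and by -1.06 to -1.01 for ventricles over brain parts. Gnb2 then was higher in atria than in ventricles (log2 fold change 0.36, adjusted p = 0.0212) and lower in atria (-0.66) and ventricles (-1.02) than in cerebellum, and Gnb4 turned in direction for atria over ventricles (0.15, adjusted p = 0.163), atria over hippocampus (-0.34) and ventricles over hippocampus (-0.48). Gnb1 and Gnb3 kept their direction in all 10 pairs under both scalings.

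The share of each member in the summed Gnb1 to Gnb4 counts does not depend on that scaling. Gnb1 took 65.6% ± 3.56 (SD, n = 6) of the summed counts in Gnb5+/+ atria, 59.1% ± 4.196 in ventricles, 76.6% ± 0.765 in cerebellum, 76.7% ± 0.724 in hippocampus and 73.8% ± 0.621 in cortex. Gnb2 took 26.5%, 28.1%, 15.96%, 20.6% and 20.7% in the same order. Heart thus differed from brain mainly in a larger Gnb2 and a smaller Gnb1 share. Gnb4 took 7.18%, 8.85%, 7.30%, 2.73% and 5.44%, lowest in hippocampus. Gnb3 took 0.696% in atria, 3.96% ± 1.73 in ventricles, and 0.121%, 0.0358% and 0.0343% in cerebellum, hippocampus and cortex.

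After division by exon length, Gnb1 took 64.1%, 57.0%, 77.2%, 74.1% and 72.6%, and Gnb2 32.4%, 34.0%, 20.2%, 24.95% and 25.6% in atria, ventricles, cerebellum, hippocampus and cortex of Gnb5+/+ mice. The long Gnb4 exons brought its share down to 2.36%, 2.87%, 2.47%, 0.889% and 1.799%. In ventricles the Gnb3 share per kilobase, 6.19% ± 2.70, was above that of Gnb4.

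**Figure D2:**
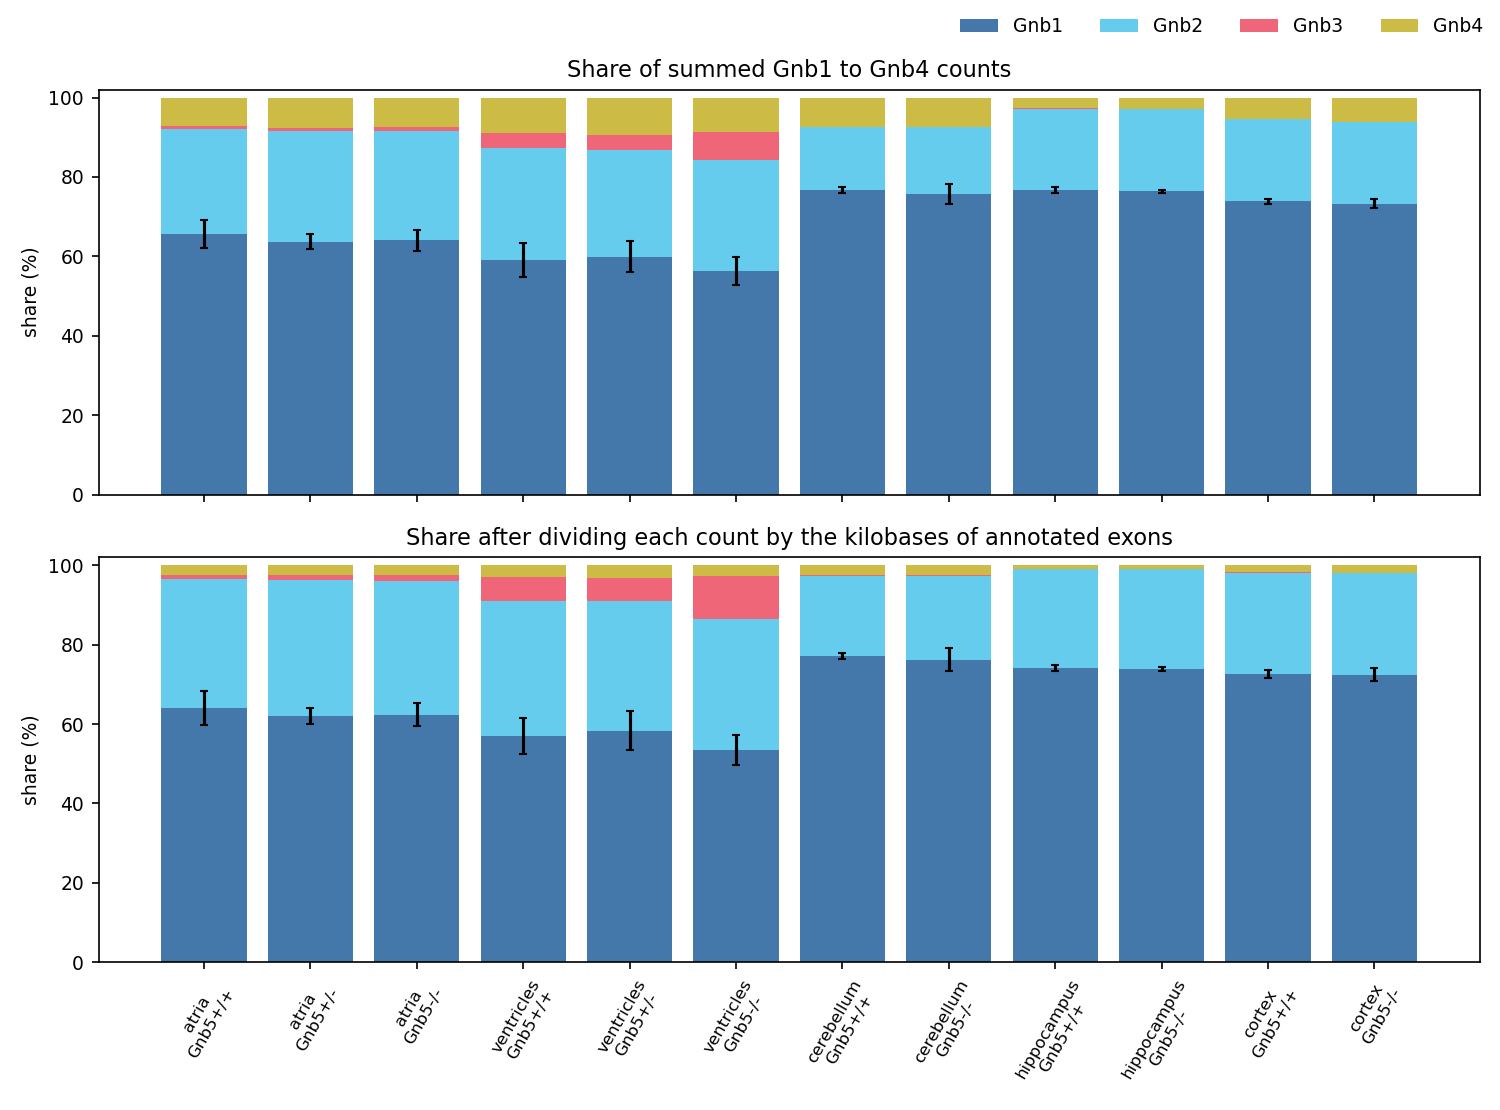
Stacked mean share (%) of each member in the summed Gnb1 to Gnb4 counts for the 12 groups, as raw counts (top) and after division by exon kilobases (bottom); error bars are the SD of the Gnb1 share (n = 6). The Gnb1 share is 56.4% to 65.6% of raw counts in heart groups and above 73.0% in brain groups, and the Gnb3 share is visible in ventricles, most in Gnb5-/- mice.

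Genotypes were compared within each tissue to ask whether the other beta subunits differ when Gnb5 is lost. None of the 4 was called by edgeR in any of the 9 comparisons. In hippocampus and cortex Gnb3 was not tested in these fits, since its counts were too low for the filter. The background share of genes called between Gnb5-/- and Gnb5+/+ was 0.253% in atria, 0.188% in ventricles, 0.0817% in cerebellum, 0.165% in hippocampus and 0.0557% in cortex. It was 0.0124% in atria and 0.0202% in ventricles for Gnb5+/- against Gnb5+/+, and 0.0494% and 0.0874% for Gnb5-/- against Gnb5+/-. At an unadjusted p under 0.05, Gnb3 in atria, Gnb3 in ventricles and Gnb4 in cortex passed between Gnb5-/- and Gnb5+/+, where 8.15%, 4.78% and 7.39% of all genes did. Gnb3 in ventricles also passed between Gnb5-/- and Gnb5+/-, where 8.79% did. No member passed between Gnb5+/- and Gnb5+/+ atria (7.22%) or ventricles (4.84%), or between Gnb5-/- and Gnb5+/- atria (4.86%). DESeq2 called Gnb3 alone, between Gnb5-/- and Gnb5+/- ventricles (adjusted p = 0.0316).

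The intervals of the difference between genotypes were narrowest for Gnb1. It had 161, 167 and 180 CPM in Gnb5-/- atria and 138, 152 and 159 in Gnb5-/- ventricles, both overlapping the Gnb5+/+ ranges above. Among the brain parts of Gnb5-/- mice, cerebellum had 295, 327 and 334 CPM, hippocampus 414, 424 and 428, and cortex 455, 482 and 519. In Gnb5+/- mice it had 152, 163 and 170 CPM in atria and 141, 146 and 172 in ventricles, so no tissue separated the genotypes. Over the 5 tissues its log2 fold change in Gnb5-/- lay between 0.01 and 0.05, and the 95% intervals reached from -0.12 to 0.20. In cortex it was -0.03 without mice 14 and 3, as was its value in the fit of 60 libraries described below without the 3 brain libraries that stood apart. Gnb2 had 65.1, 72.01 and 82.9 CPM in Gnb5-/- atria, 55.7, 74.3 and 97.4 in ventricles, 59.0, 66.9 and 99.4 in cerebellum, 111, 115 and 119 in hippocampus, and 120, 137 and 164 in cortex. Gnb5+/- mice had 65.4, 71.1 and 81.9 CPM of Gnb2 in atria and 52.5, 59.6 and 114 in ventricles. These ranges also overlapped those of Gnb5+/+ mice. For Gnb2 the fold changes were 0.03 to 0.15 and the intervals reached from -0.31 to 0.43. The widest interval was that of ventricles, where Gnb2 was 48.7 to 90.6 CPM in Gnb5+/+ and 55.7 to 97.4 CPM in Gnb5-/- mice. The largest value, 0.15 in cerebellum, was 0.03 without the library of mouse 12, and the value in cortex turned to -0.05 without mice 14 and 3. In Gnb5+/- ventricles Gnb2 differed from Gnb5+/+ by -0.06 on the log2 scale (-0.44 to 0.31), and by -0.25 without mouse 4 (adjusted p = 0.749).

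Gnb4 had 37.9, 39.7 and 44.3 CPM in Gnb5-/- cortex, against 32.6, 35.1 and 39.2 in Gnb5+/+. The ranges overlapped, and the log2 fold change of 0.22 (95% interval 0.03 to 0.40) had an adjusted p of 0.474, with 0.333 to 0.775 when 1 library was left out at a time. It was 0.18 without mice 14 and 3 (adjusted p = 0.955). Gnb5-/- mice had 16.97, 19.2 and 23.2 CPM of Gnb4 in atria, 20.2, 23.6 and 27.5 in ventricles, 28.5, 30.7 and 35.3 in cerebellum, and 13.4, 15.5 and 17.2 in hippocampus. In these 4 tissues the Gnb4 fold changes were 0.04 to 0.10 and the intervals reached from -0.12 to 0.28. In Gnb5+/- hearts the intervals of Gnb1 and Gnb4 against Gnb5+/+ lay between -0.16 and 0.27.

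Gnb3 had 16.3, 18.3 and 22.9 CPM in Gnb5-/- ventricles and 4.62, 10.8 and 13.7 CPM in Gnb5+/- ventricles, against 5.41, 9.11 and 16.2 CPM in Gnb5+/+. Every Gnb5-/- mouse lay above every Gnb5+/+ and Gnb5+/- mouse, by little at the edge, since the lowest Gnb5-/- value was 16.3 CPM and the highest Gnb5+/+ value 16.2 CPM. Of all genes, 0.462% had Gnb5-/- and Gnb5+/+ ventricle ranges that did not overlap in 1 direction or the other. The log2 fold change was 0.92 (95% interval 0.40 to 1.45), a ratio of 1.90, with an adjusted p of 0.293. Against Gnb5+/- it was 0.98 (0.45 to 1.51, adjusted p = 0.203). Gnb5+/- and Gnb5+/+ differed by -0.06 (-0.59 to 0.48).

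The Gnb3 share of summed counts was 5.64%, 6.88% and 8.80% in Gnb5-/- ventricles and 2.19%, 3.63% and 6.82% in Gnb5+/+ ventricles, so the shares overlapped where the levels did not. Gnb1 correspondingly had 56.4% ± 3.54 of the summed counts in Gnb5-/- ventricles. Per kilobase Gnb3 took 10.8% ± 1.59 in Gnb5-/- and 5.91% ± 2.27 in Gnb5+/- ventricles, beside 2.80% and 3.11% for Gnb4.

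In atria Gnb3 was at 1.62, 2.80 and 3.93 CPM in Gnb5-/-, 1.72, 2.07 and 2.32 in Gnb5+/- and 1.17, 1.79 and 2.54 in Gnb5+/+ mice. The 3 genotypes overlapped, and the difference between Gnb5-/- and Gnb5+/+ was 0.61 (95% interval 0.15 to 1.07, adjusted p = 0.415). Non-overlapping ranges were found for 0.54% of all genes in atria, and for no member.

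In the brain the Gnb3 difference had the opposite sign. Reads per library were 7, 11, 13, 14, 14 and 15 in Gnb5+/+ cortex and 2, 3, 5, 5, 6 and 6 in Gnb5-/- cortex, or 0.138 to 0.262 CPM against 0.0384 to 0.112 CPM. The ranges did not overlap in cortex, as for 0.516% of all genes, but did in hippocampus (3 to 10 reads in Gnb5-/-) and cerebellum (18 to 30 reads), where 0.57% and 0.997% of all genes did not overlap. In hippocampus and cortex these counts were too low for the filter, and without it the log2 fold changes were -0.66 (adjusted p = 0.691) and -1.32 (adjusted p = 0.541). DESeq2, which was run without that filter, gave -1.36 in cortex (adjusted p = 0.225). Without mice 14 and 3 the cortical counts were enough for the filter and edgeR gave -1.31 (adjusted p = 0.494). In cerebellum the difference was -0.25 (-0.64 to 0.15, adjusted p = 0.594).

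**Figure D3:**
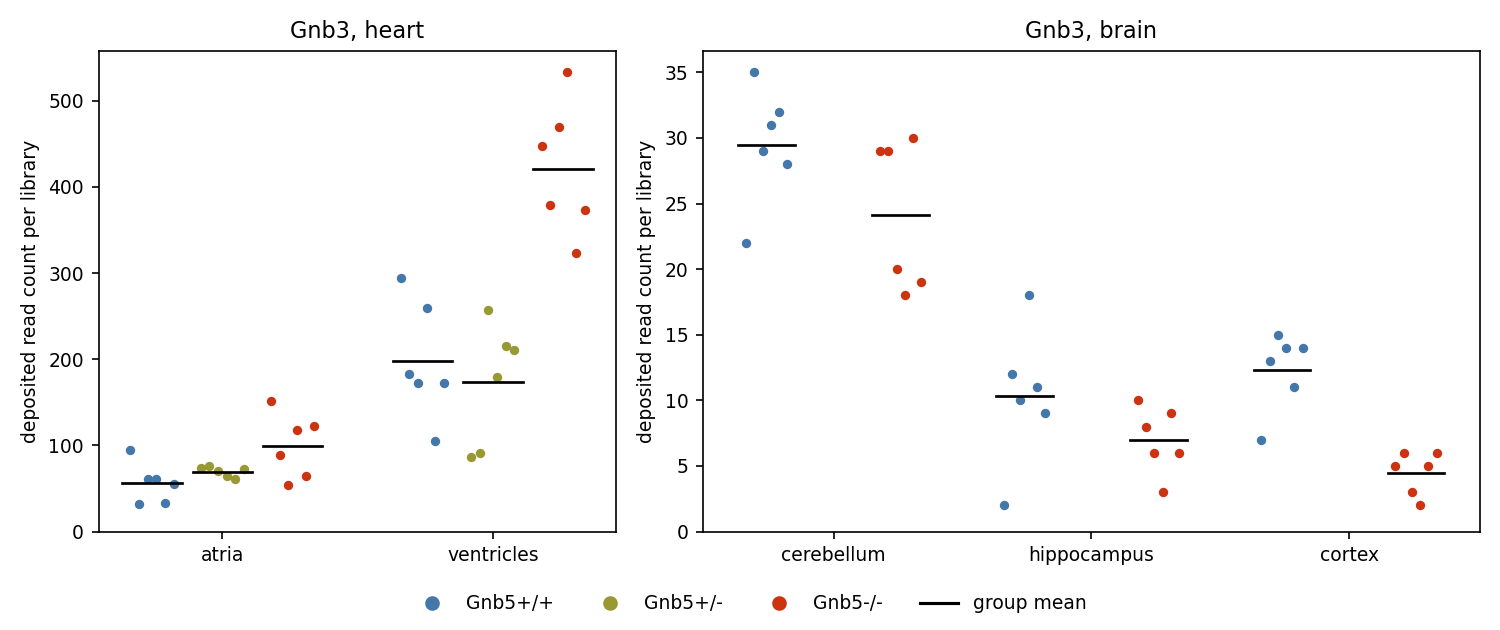
Deposited Gnb3 read counts per library, not normalized, by tissue and genotype, for heart (left) and brain (right, other axis range); points are libraries and bars are group means. Ventricle libraries hold 323 to 533 reads in Gnb5-/- and 105 to 294 in Gnb5+/+ mice, and cortex libraries 2 to 6 and 7 to 15.

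Whether the difference between Gnb5-/- and Gnb5+/+ mice varied among the 5 tissues was tested in the 60 libraries of these genotypes fitted together. For Gnb3 it did (edgeR quasi-likelihood F test, adjusted p = 0.00123), where 0.167% of all genes were called, and for Gnb1, Gnb2 and Gnb4 the adjusted p was 0.939 to 1.00. The Gnb3 call held in 6 alternatives (adjusted p 1.79e-05 to 0.00406, highest without the 3 brain libraries that stood apart) and without each of 24 ventricle and cortex libraries (0.000133 to 0.00347). With the mouse as a block the adjusted p was 0.0013. Between ventricles and atria alone the difference in effect was 0.33 on the log2 scale (-0.29 to 0.95, adjusted p = 1.00), against a background of 0.00982%.

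The remaining pairs of tissues, added after the data were seen, placed the contrast between cortex and heart. The effect in cortex was lower than in ventricles by a log2 difference of -2.27 (95% interval -3.07 to -1.46, adjusted p = 0.0014, 0.113% of all genes called) and lower than in atria by -1.94 (-2.76 to -1.12, adjusted p = 0.0195, 0.128% called). The other 7 pairs were not called, among them hippocampus against ventricles at -1.58 (adjusted p = 0.139) and cerebellum against ventricles at -1.18 (adjusted p = 0.254). Cortex was not told apart from the other brain parts. With the mouse as a block it differed from hippocampus by -0.70 (edgeR quasi-likelihood test, adjusted p = 0.604) and from cerebellum by -1.09, neither called. Each pair shares its tissues with other pairs, and all 5 tissues came from the same 12 mice. The pairs were not refitted without the 3 brain libraries that stood apart. Their cortical side rested on 2 to 6 reads per library in Gnb5-/- and 7 to 15 in Gnb5+/+ mice.

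Within the fit of 60 libraries, also added after the data were seen, the spread was estimated over all tissues, and more genes were called, 0.643% in atria, 0.403% in ventricles, 0.211% in cerebellum, 0.236% in hippocampus and 0.265% in cortex. Gnb3 was then higher in Gnb5-/- than in Gnb5+/+ ventricles by 0.93 (95% interval 0.51 to 1.36, adjusted p = 0.0216). This call was made in 20 of 24 fits without 1 library and was lost without Gnb5-/- mouse 1 (0.0979) or the Gnb5+/+ ventricles of mouse 16 (0.0626), mouse 7 (0.1003) or mouse 8 (0.0775). In cortex the difference was -1.33 (-2.02 to -0.65), with an adjusted p of 0.0656. Without 1 library the cortical adjusted p ranged from 0.0205 to 0.288, with a call in 4 of 24 fits. It was 0.793 without the 3 brain libraries that stood apart. Atria had 0.61 (adjusted p = 0.312), hippocampus -0.65 (1.00) and cerebellum -0.25 (0.684). Gnb1, Gnb2 and Gnb4 were not called in any tissue of this fit.

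**Figure D4:**
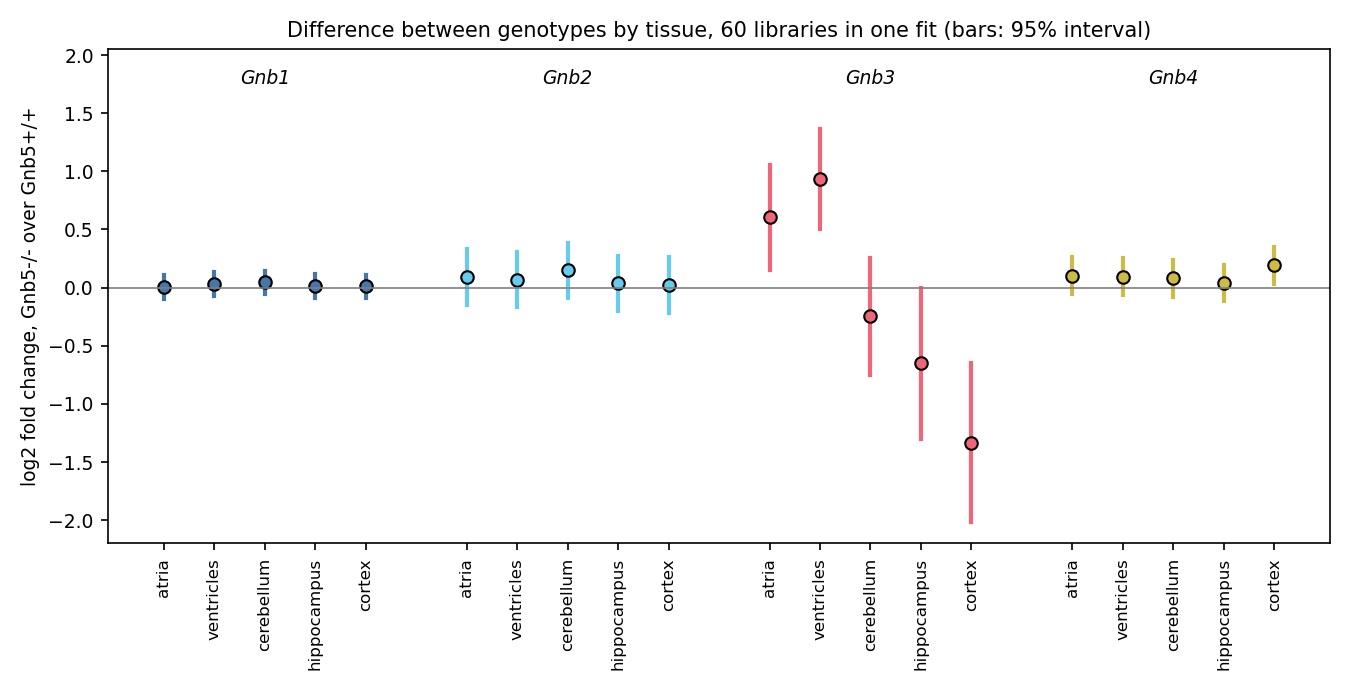
Log2 fold change of Gnb5-/- over Gnb5+/+ for each member and tissue in the fit of 60 libraries, with 95% intervals as bars and 0 as a line. Gnb1, Gnb2 and Gnb4 lie close to 0 in all tissues, and Gnb3 runs from 0.93 in ventricles to -1.33 in cortex.

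In both genotypes the mouse with the most ventricular Gnb3 had the fewest Gnb3 reads in hippocampus and cortex. Mouse 15 had the highest ventricular value among Gnb5+/+ mice (16.2 CPM) and the lowest in hippocampus (2 reads) and cortex (7 reads). Mouse 1 had the highest ventricular value among Gnb5-/- mice (22.9 CPM) and the lowest in hippocampus (3 reads) and cortex (2 reads). The other mice did not follow this order throughout. Mouse 18, second highest in Gnb5+/+ ventricles (12.7 CPM), had the most hippocampal reads of its genotype (18), and the lowest ventricular values, of mouse 7 (5.41 CPM) and mouse 14 (16.3 CPM), did not go with the highest brain values. These are single animals, named after their values were seen.

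Markers of other cells were read beside Gnb3, since in bulk tissue fewer cells of a type and less RNA per cell cannot be told apart. In ventricles the 8 retina markers, which include cone genes, summed to 0.380 to 0.825 CPM in Gnb5+/+ and 0.262 to 0.691 CPM in Gnb5-/- mice. Arr3 was at 0 in all 6 Gnb5-/- and all 6 Gnb5+/- ventricle libraries. These sums lie near the floor, and the part of such cells in the Gnb3 values was not tested. The 5 pineal markers reached at most 0.0980 CPM in Gnb5+/+ and 0.0861 CPM in Gnb5-/- ventricles, with Crx and Gngt1 at 0 in both. The 4 adipocyte markers (1.59 to 7.63 and 0.516 to 6.25 CPM), 5 intracardiac neuron markers (2.86 to 8.15 and 3.27 to 6.89), 4 leukocyte markers (26.04 to 49.8 and 26.3 to 32.7), 3 red blood cell markers (291 to 1204 and 325 to 832) and 8 clock genes (290 to 496 and 288 to 454) overlapped between Gnb5+/+ and Gnb5-/- ventricles. So did 5 skeletal muscle markers (2.09 to 3.67 and 1.53 to 2.80), with Myh4 at 0 in both. The ranges also overlapped for 4 choroid plexus markers (0.143 to 0.684 and 0.322 to 1.68) and 4 atrial markers (130 to 327 and 179 to 398).

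In cortex the retina markers summed to 2.56 to 3.67 CPM in Gnb5+/+ and 2.16 to 3.34 in Gnb5-/- mice, and the pineal markers to 1.21 to 1.63 and 1.20 to 1.86. The 4 choroid plexus markers ranged from 8.55 to 215 CPM in Gnb5+/+ and from 7.42 to 524 in Gnb5-/- cortex, a wide spread within both groups, and their part in the Gnb3 values was not tested. In Gnb5+/+ atria the 3 ventricle markers ranged from 3.87 to 1028 CPM, against 9074 to 10882 in ventricles, so atrial libraries differed in their content of these mRNAs. The median was 219 CPM in Gnb5+/+, 70.6 in Gnb5+/- (3.87 to 475) and 65.4 in Gnb5-/- atria (10.2 to 285). The part of this content in the atrial Gnb3 values was not tested.

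Partners of the beta subunits were read from fixed lists. Between Gnb5-/- and Gnb5+/+ mice, no gene was called by edgeR among 12 gamma subunits (8 to 11 tested per tissue), 16 alpha subunits (12 or 13 tested), 20 beta-gamma effectors (17 to 20 tested) or 16 genes of beta-gamma assembly and regulation (15 tested). At an unadjusted p under 0.05, 2 of 54 genes tested on these 4 lists passed in atria, 6 of 53 in ventricles, 2 of 58 in cerebellum, 1 of 59 in hippocampus and 5 of 59 in cortex. The share of all genes passing was 8.15%, 4.78%, 5.85%, 7.70% and 7.39% in the same order. DESeq2 called 1, Adcy1, an adenylyl cyclase, in ventricles. Of the 9 genes for Gnb5, the R7-type RGS proteins and their partners, 1 was called by edgeR in each tissue, Gnb5 itself, lower in Gnb5-/- by a log2 fold change of -4.01 in atria, -4.26 in ventricles, -2.84 in cerebellum, -2.95 in hippocampus and -3.09 in cortex. DESeq2 also called Gpr158, an orphan receptor that binds R7-type RGS proteins, in atria. For a difference of the Gnb5-/- effect among the 5 tissues, edgeR called only Gnb5 on these 5 lists, and DESeq2 also called Rgs7 and Plcb1. The list medians in ventricles were 0.01 for gamma subunits, -0.06 for alpha subunits, -0.02 for effectors and -0.03 for assembly genes, beside -0.01 over all genes. In cortex they were 0.21, 0.00, -0.19 and 0.34, beside 0.01, but -0.04, 0.01, -0.02 and -0.01 without mice 14 and 3. In cerebellum the medians of 0.08, 0.00, -0.14 and 0.17 became -0.03, 0.03, -0.01 and -0.00 without mouse 12. The larger shifts of these lists in cortex and cerebellum were thus not seen without the libraries that stood apart. List medians were not recomputed with other libraries left out.

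Between Gnb5+/+ atria and ventricles, where the background was 51.6%, 7 of 11 gamma subunits tested were called, 5 of them higher in atria, and 8 of 14 alpha subunits, 4 in each direction. Of the effectors 16 of 20 were called, 12 higher in atria, of assembly and regulation genes 5 of 15, 2 higher, and of the Gnb5 and R7-type RGS list 8 of 9, 7 higher. Per kilobase the main gamma subunits of the heart differed from those of the brain, with Gng5 at 27.1 and Gng11 at 27.7 CPM in ventricles against 2.16 and 5.03 in cortex. Gng3 had 0.0105 CPM per kilobase in ventricles and 63.5 in cortex. Gngt1, the rod gamma subunit, was at 0 in all Gnb5+/+ heart and cortex libraries, and Gngt2, the cone gamma subunit, had 4.15 CPM per kilobase in ventricles.

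The genes most like each member were named by a fixed rule, the 3 protein-coding genes of highest Pearson r of log2 CPM over 36 libraries, in heart and brain separately. These r values are descriptions, since the libraries share mice and an r over tissues also takes in differences between tissues. In heart Gnb3 was most like Scgb1c1 (r = 0.957, and 0.866 within 18 ventricle and 0.529 within 18 atrial libraries), Plin3 (0.943), which coats lipid droplets, and Slc6a8 (0.934), the creatine transporter. Gnb1 was most like Cnn3, Tubb5 and Ppib (0.857 to 0.893), and Gnb2 most like Rabac1, Mbd3 and Tmem115 (0.886 to 0.898). Within ventricles the 3 genes like Gnb2 had r of 0.922 to 0.929, higher than over both heart tissues. Within atria their r was 0.850 to 0.914. The ventricle libraries include that of Gnb5+/- mouse 4, which stood apart, and heart r values were not recomputed without it. Gnb4 was most like Aplnr, the apelin receptor, Hars2 and Cav2 (0.809 to 0.817).

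Over the 36 brain libraries Gnb1 was most like Epop, Asic4 and Tubb5 (0.979 to 0.982), Gnb2 most like C1qc, Tspan7 and Tubb5 (0.981 to 0.982), and Gnb4 most like Foxp2, Atp6ap1l and Ppp1r1b (0.967 to 0.971). Gnb3, at its low counts, was most like Amt, Gm20219 and Trip6 (0.869 to 0.890). Tubb5, a beta tubulin, was the gene on the lists of both Gnb1 and Gnb2. Within single brain parts the r was lower in most cases, for example -0.35 for Gnb4 and Ppp1r1b within 12 hippocampal libraries, beside 0.79 within cortex. Without the 3 brain libraries that stood apart, the r of each named gene over the remaining 33 libraries was 0.865 to 0.989.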

How the data were processed

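The authors trimmed adapters with Cutadapt (1.8), discarded ribosomal and low-complexity reads, then aligned single-end reads to GRCm38 with STAR (2.5.3a) and counted reads per Ensembl gene with htseq-count (HTSeq 0.9.1). The deposited values were raw counts, 1 table per library. Of 53715 identifiers, 53620 matched GENCODE M21, which gave symbols, exon lengths and coding sequences. Counts were normalized with TMM, filtered with filterByExpr (count minimum 10) and tested with edgeR 4.0.16 (R 4.3.3), quasi-likelihood test, Benjamini-Hochberg threshold 0.05. Heart fits held 18 libraries of 3 genotypes, brain fits 12, the tissue fit 30 Gnb5+/+ and the fit across tissues 60 libraries. Intervals are at 95% and rest on the spread between libraries of a group, each from a different mouse. The main fits of 30 and 60 libraries had no term for the mouse. Their intervals therefore treat tissues of the same mouse as independent. DESeq2 1.42.0 was an alternative. Only some of the contrasts were first tested on simulated counts. The F test for a difference of effects among tissues, the comparisons with heterozygous mice and the fits with the mouse as a block were not. Members, gene lists and marker lists were chosen with earlier results of these data known. Genes named are the members, Gnb5, list genes called in Gnb5-/-, the 3 most like each member, genes sharing exons with a member, and markers. Single mice, genes called by DESeq2 alone and the gamma subunits whose levels are given were named after their values were seen. Replicate numbers join different animals across genotypes, and same-numbered libraries did not deviate together (r -0.201 to 0.0927, 0 of 30 over 0.1). Across tissues the labels give the same mouse, and 116 of 126 such pairs had r over 0.1 (median 0.187).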

Additional observations from a re-analysis of the deposited data

Results flagged for a closer look

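The difference of Gnb3 between Gnb5-/- and Gnb5+/+ mice varied among the 5 tissues (edgeR quasi-likelihood F test over 60 libraries, adjusted p = 0.00123). By that test 0.167% of all genes were called. Compared with every Gnb5+/+ mouse, Gnb3 was higher in Gnb5-/- ventricles in 6 of 6 mice and lower in Gnb5-/- cortex in 6 of 6 mice. Ranges without overlap, in either direction, were found for 0.462% of all genes in ventricles and 0.516% in cortex. The closest ventricle values were 16.3 and 16.2 CPM. Cortex libraries held 2 to 6 Gnb3 reads in Gnb5-/- and 7 to 15 in Gnb5+/+ mice.

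In 6 of 48 combinations of a member and a group, 1 library lay apart from the other 5, and chance puts 1 library apart in about 1 in 20 such groups. Both the Gnb1 level of 172 CPM (next 152) and the Gnb2 level of 114 CPM (next 69.9) of Gnb5+/- ventricles belonged to mouse 4, whose library had 1.44% of reads outside genes. The Gnb2 level of 99.4 CPM in Gnb5-/- cerebellum (next 73.1) belonged to mouse 12, whose library had 6.07% of reads outside genes. The part of these shares in the values was not tested. The other 3 were the Gnb2 level of 44.95 CPM of mouse 16 in Gnb5+/+ atria (next 71.1), the Gnb4 level of 27.9 CPM of mouse 9 in Gnb5+/- ventricles (next 23.5), and the Gnb4 level of 24.7 CPM of mouse 17 in Gnb5+/+ cerebellum (next 29.6). No Gnb3 library lay apart by this measure.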

How the results depend on the processing

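Between genotypes, the count of members called was the same in all alternatives to the fixed fits but 2. With DESeq2, Gnb3 was called between Gnb5-/- and Gnb5+/- ventricles, and with 60 libraries fitted together it was called between Gnb5-/- and Gnb5+/+ ventricles, so each count went from 0 to 1. Leaving 1 library out of the fit of 60 kept that ventricle call in 20 of 24 fits and gave a cortex call in 4 of 24. Between tissues, library totals added a Gnb2 call for atria and for ventricles against cerebellum, took that of Gnb4 between cerebellum and cortex, and put Gnb2 in place of Gnb4 between atria and ventricles, while no filter took the Gnb4 calls of both these pairs. In the fixed fits the adjusted p of Gnb3 in Gnb5-/- against Gnb5+/+ ventricles ranged from 0.0621 (DESeq2) to 0.440 (replicate block), and from 0.0649 to 0.694 without 1 library. The Gnb3 call over 5 tissues held in every fit run. The low reads in brain limit Gnb3 there, since 2 to 18 reads per library leave intervals of more than a log2 unit, and the filter keeps it out of the single-tissue fits of hippocampus and cortex.

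The number of all genes called moved more, and the cause was not tested. For Gnb5-/- against Gnb5+/+ in atria, ventricles, cerebellum, hippocampus and cortex it was 41, 28, 14, 29 and 10 with edgeR, 110, 63, 52, 110 and 34 with DESeq2, and 131, 82, 43, 48 and 54 with 60 libraries fitted together. DESeq2 gave 8 in place of 2 for Gnb5+/- and 27 in place of 8 for Gnb5-/- against Gnb5+/- in atria, 68 in place of 13 for the latter in ventricles, 9 in place of 2 for the difference of effects between ventricles and atria, and 191 in place of 34 over 5 tissues. With edgeR the last was 86 without the 3 brain libraries that stood apart, and the count in cortex was 26 without mice 14 and 3. Library totals gave 63 in atria and 18 in ventricles for Gnb5-/-, 0 in place of 3 for Gnb5+/- and 20 for Gnb5-/- against Gnb5+/- in ventricles, and 6 for ventricles against atria, with the median of all genes moved by 0.14 for Gnb5-/- against Gnb5+/+ atria and against Gnb5+/- ventricles. Fits of 2 genotypes gave 20 for Gnb5-/- and 13 for Gnb5-/- against Gnb5+/- in atria and 1 for Gnb5+/- in ventricles. A minimum of 10 counts gave 6 in cortex, and no filter gave 1 for ventricles against atria.

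The replicate block used numbers that join different animals, which did not pair the samples. It gave 0 for Gnb5+/- ventricles, 5 in cerebellum, 19 in hippocampus and 6 in cortex, and the mouse as replicate block gave 1 for ventricles against atria. No call of a member changed with either block.

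Without 1 library the number called was 24 to 62 in atria (24 without Gnb5-/- mouse 1, 25 to 27 without each of 4 Gnb5+/+ mice, 16, 17, 18 and 7, 62 without Gnb5+/+ mouse 15), 17 to 41 in ventricles (17 without Gnb5+/+ mouse 7), 9 to 62 in cerebellum (62 without Gnb5-/- mouse 12, 30 without Gnb5+/+ mouse 15, 9 without mouse 3, 5, 16 or 7) and 8 to 22 in cortex (22 without Gnb5-/- mouse 14, 20 without Gnb5+/+ mouse 15) for Gnb5-/-, 1 to 3 for Gnb5+/- ventricles (1 without mouse 11 or 6), and 8 to 23 for Gnb5-/- against Gnb5+/- ventricles (8 without Gnb5+/- mouse 13, 23 without mouse 2, 21 without mouse 4).

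Differences between genotypes near 0 changed sign, none of them called. With library totals Gnb1 was 0.046 for Gnb5+/- atria, -0.066 for Gnb5+/- ventricles, -0.0061 for Gnb5-/- hippocampus and -0.072 for ventricles against atria, and Gnb4 -0.012 for Gnb5+/- ventricles. Between tissues, library totals gave the Gnb2 values 0.36, -0.66 and -1.02 and the Gnb4 values 0.15, -0.34 and -0.48 given above. Gnb2 was 0.013 for atria over ventricles, -0.030 for atria over cerebellum and -0.044 for ventricles over cerebellum with no filter, and -0.0051 (RLE factors) and -0.011 (DESeq2) for atria over cerebellum. Without mice 14 and 3 Gnb1 was -0.032 and Gnb2 -0.047 in Gnb5-/- cortex. Without 1 library, Gnb1 ranged from -0.017 to 0.040 in Gnb5-/- atria, -0.011 to 0.057 in Gnb5-/- cortex, -0.021 to 0.027 in Gnb5+/- ventricles and -0.0058 to 0.042 for Gnb5-/- against Gnb5+/- ventricles. Gnb2 ranged from -0.025 to 0.137 in Gnb5-/- ventricles, -0.0075 to 0.082 in Gnb5-/- cortex, -0.25 to 0.00087 in Gnb5+/- ventricles and -0.0065 to 0.059 for Gnb5-/- against Gnb5+/- atria. Gnb3 ranged from -0.20 to 0.080 in Gnb5+/- ventricles. Gnb4 ranged from -0.013 to 0.071 in Gnb5-/- hippocampus, and for Gnb5-/- against Gnb5+/- from -0.029 to 0.046 in atria and -0.014 to 0.060 in ventricles.

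The Gnb1 share depended on the length used. Per kilobase of the longest transcript it was 57.0% in atria, 50.2% in ventricles, 71.2% in cerebellum, 67.9% in hippocampus and 66.1% in cortex of Gnb5+/+ mice. Per kilobase of all exons it was 74.1% in hippocampus and 72.6% in cortex, and with the shared Gnb2 bases left out 73.4% and 71.8%.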
